A study of Homo sapiens with 12 samples.

Results

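SKBR3 cells, a long-established human breast cancer line, carry an amplification of ERBB2, the gene of the receptor HER2. The comparison described here set 3 libraries of messenger RNA from SKBR3 cells kept in 5 µM GSK126 for 7 days against 3 libraries from cells kept in the vehicle, DMSO. Neither group received lapatinib, and these are 6 of the 12 libraries of the series, chosen by treatment label alone. The other 6 came from cells given GSK126 + lapatinib (5 µM GSK126 for 7 days and the HER2 and EGFR kinase inhibitor lapatinib at 100 nM for the last 24 h) and from cells kept in DMSO and then given lapatinib at 100 nM for 24 h. They share no sample with the first 6 and served as another measurement of GSK126. Each group is 1 cell line at 1 dose and 1 time. Whether its 3 libraries stem from separate cultures is not stated, so p-values here cover just the variation among these libraries. All 22170 genes of the table entered, and 13329 of them had a normalized read count of at least 10 in at least 3 of the 6 libraries and were tested.

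GSK126 blocks the catalytic site of EZH2, the enzyme of Polycomb repressive complex 2 (PRC2). PRC2 places methyl groups on lysine 27 of histone H3, a mark of repressed genes, and its core holds EZH2 or EZH1 together with EED and SUZ12. Genes under this mark in differentiated cells are often developmental regulators, and in several cancers also genes of antigen presentation and of the interferon response. Once the enzyme is blocked, the mark is lost largely by dilution as cells divide.

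The GSK126 libraries held 28196073 to 30349466 gene reads and the DMSO libraries 25441151 to 26773979. Within a group, Pearson's r across genes was 0.929 to 0.975 with GSK126 and 0.969 to 0.982 with DMSO. The GSK126 libraries also spread more, with a median SD per gene of 0.432 in log2 units against 0.243 with DMSO. The proportions of the spike-in transcripts among themselves set GSK126 libraries 2 and 3 apart. They correlated at 0.908 with each other and at -0.356 to -0.779 with the DMSO libraries, while GSK126 library 1 correlated at 0.607, -0.098 and 0.528 with DMSO libraries 1 to 3. In a fit of all 12 libraries with this composition as a term, 393 genes were higher and 53 lower with GSK126, against 1380 and 553 in that fit without the term. The term had 3 classes. GSK126 library 1 was alone in its class, and GSK126 libraries 2 and 3 shared a class with GSK126 + lapatinib library 1. No GSK126 library shared a class with a DMSO library, so in these 6 libraries composition and drug cannot be told apart. In the fit only the GSK126 + lapatinib libraries separated them. The nuclear RNA MALAT1 took 4.04%, 1.05% and 1.66% of gene reads in GSK126 libraries 1 to 3, and 2.09%, 1.29% and 2.02% in DMSO libraries 1 to 3, so that GSK126 library 1 stood above the other 5. Defining epithelial genes such as KRT8, KRT18 and KRT19 were at 95676 or more in every library. CDH1, the E-cadherin gene, which SKBR3 is known to lack, was at 0 in the GSK126 libraries and at 0 to 2.45 in the DMSO libraries.

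After 7 days in GSK126 many more genes were higher than lower. At an adjusted p under 0.05 (limma, Benjamini-Hochberg over the 13329 genes), 760 genes rose, 5.7% of those tested, and 62 fell, 0.465% of those tested. The counts of list members below are to be read against these shares. The genes that rose had a median log2 change of 2.35 and the genes that fell one of -1.34, against -0.06 over all tested genes. Of the genes that rose, 458 were at least 4-fold and 99 at least 16-fold higher, while 11 genes were at least 4-fold lower. Library by library, the median difference of the 760 genes from the DMSO mean was 2.30, 2.31 and 2.39 in GSK126 libraries 1 to 3, and that of the 62 genes was -1.48, -1.30 and -1.16. These libraries also chose the genes, so the medians are a description. In each of the 760 genes and each of the 62 genes, the GSK126 and DMSO libraries did not overlap. Separation of the libraries is thus no trait of the single genes named below. The number of calls rested on single libraries. Without GSK126 library 3 it was 334 higher and 25 lower, without GSK126 library 1 it was 1069 and 357, and without DMSO libraries 1, 2 and 3 in turn it was 623 and 21, 532 and 18, and 497 and 18. In all 6 fits that each left out 1 library, 305 of the genes that rose and 16 of those that fell passed. With the libraries scaled to their spike-in total, 233 genes were higher and 3 lower. Spike-ins took 1.33%, 0.384% and 0.650% of reads in GSK126 libraries 1 to 3, and 0.745%, 0.588% and 0.663% in DMSO libraries 1 to 3. This scale thus differed widely among the GSK126 libraries, and its part in the counts was not tested.

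The genes that rose sat mostly at the low end of expression in DMSO. Among the 12208 tested genes with at least 10 in every DMSO library, a set that no gene entered through its GSK126 values alone, 488 (4.0%) rose and 62 (0.508%) fell. Split by DMSO mean, 11.2% of the 2164 genes between 10 and 100 rose, 4.15% of the 5056 genes between 100 and 1000 and 0.751% of the 4527 genes between 1000 and 10000. Fold changes are on the scale of log2(value + 1), which understates the change of low genes. A further 89 of the 760 genes were under 5 in every DMSO library, out of 7468 such genes in the table and 112 that reached the test. Those 112 reached the test only through their GSK126 values, so their share is no result, and the same holds for members of any list below that were low in DMSO. For 14 genes no DMSO library had a read.

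**Figure D1:**
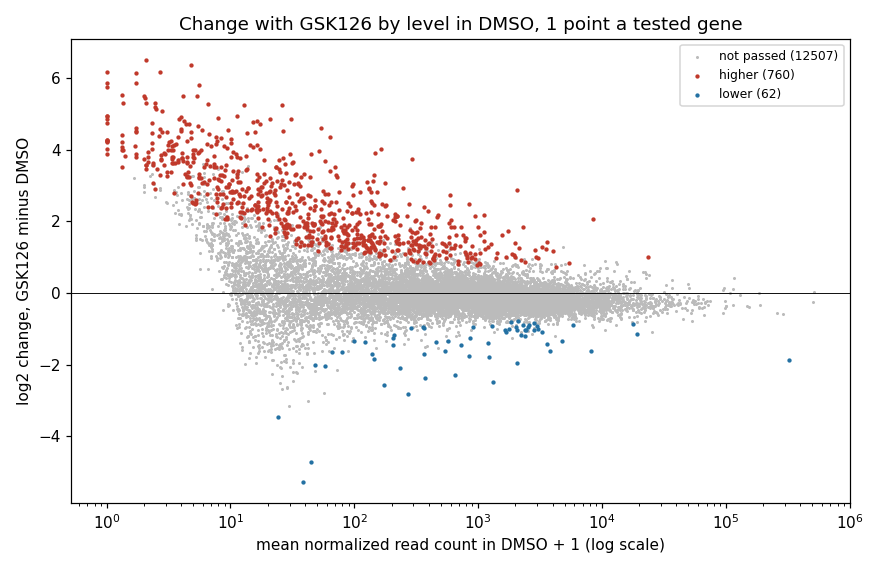
Log2 change with GSK126 (y axis, GSK126 minus DMSO) against the mean normalized read count in DMSO plus 1 (x axis, log scale), 1 point for each of the 13329 tested genes. The 760 genes that rose lie mainly left of 1000 reads, and the 62 that fell lie along the range, with H19 at the far right.

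The 15 largest increases, among genes that averaged 50 or more with GSK126, were in APOL1, TRIM31, PARP14, SLC12A7, PRPS2, NPTX1, ALOX5, MAP4K4, CYP2S1, RHBDL3, GAL, UBD, HERC6, FERMT1 and LMO2, with log2 changes of 5.31 to 6.51. APOL1, a secreted apolipoprotein that lyses trypanosomes and is induced by interferon, had 164, 124 and 154 normalized reads in the GSK126 libraries, against 0, 0 and 3.2 in the DMSO libraries. With 486 reads against 3 in all, its ratio was 134 (95% counting interval 45.5 to 651). TRIM31, a ubiquitin ligase, had 309, 360.5 and 451 with GSK126, against 6.13, 1.98 and 3.2 with DMSO (log2 change 6.37 ± 0.43 SE, adjusted p = 0.000229, limma). These genes were close to silent in DMSO and clearly expressed in every GSK126 library. SLC12A7, a potassium chloride cotransporter, had 95.3, 45.2 and 82.2 with GSK126 and no read with DMSO, at least 68.4-fold higher against a floor of 3 reads over the group. ALOX5, the 5-lipoxygenase that starts leukotriene synthesis, had 43.8, 50.6 and 84.9 with GSK126 and no read with DMSO, at least 55.1-fold higher. CYP2S1, a cytochrome P450, had 46, 52.2 and 63.6 with GSK126 and no read with DMSO, at least 49.7-fold higher. In all 3 the lowest GSK126 library stood far above the DMSO libraries. PRPS2, an enzyme of nucleotide synthesis, had 51.5, 219 and 137 with GSK126, against 1.23, 0.988 and 0 with DMSO, a ratio of 201 (95% counting interval 55.4 to 1665). GAL, which encodes the neuropeptide galanin, had 226, 82.8 and 124 with GSK126 against 7.35, 1.98 and 0 with DMSO. Both varied widely between the GSK126 libraries. All 15 genes passed in each of the 6 fits that left out 1 library.

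Most subunits of PRC2 itself, the core ones among them, did not pass at the level of messenger RNA. GSK126 acts on the protein, so EZH2 messenger RNA does not check whether the drug worked. EZH2 had 1202, 1542 and 1407 normalized reads with GSK126, against 1533, 1562 and 1553 with DMSO (log2 change -0.17 ± 0.19, adjusted p = 0.755), and the groups overlapped. SUZ12 (log2 change 0.04, adjusted p = 0.97), EED (-0.21, 0.725) and EZH1 (0.13, 0.881) did not pass either. Of 13 PRC2 genes tested 1 rose, a share near the 5.7% of all tested genes. This was PHF19, a Tudor-domain subunit that guides PRC2 to chromatin, with 239, 165 and 246 with GSK126 against 28.2, 18.8 and 31 with DMSO (3.02 ± 0.34, adjusted p = 0.0011). Among 14 tested demethylases of the same lysine and subunits of the partner complex PRC1 none passed with limma, edgeR or DESeq2, and 2 were higher at an unadjusted p under 0.05. KDM6B, which removes the mark, had 835, 847 and 794 with GSK126 against 571, 740.1 and 582 with DMSO, and did not pass (adjusted p = 0.397). Without GSK126 library 1, 1 of these 14 genes passed.

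Much of the machinery of MHC class I antigen presentation rose. Of 21 genes of class I molecules, peptide supply and loading found in the table, 20 were tested and 11 rose, with a median log2 change of 1.73. Of the 17 with at least 10 in every DMSO library, 9 rose. PSMB8, a catalytic subunit that replaces a standard one in the immunoproteasome, had 2574, 1734 and 2408 with GSK126, against 145, 133 and 161 with DMSO (3.91 ± 0.23, adjusted p = 0.000172). PSMB9, another such subunit, had 476, 341 and 484 with GSK126 against 15.9, 21.7 and 8.54 with DMSO (4.80 ± 0.39, adjusted p = 0.000334). TAP1, a subunit of the pump that carries peptides into the endoplasmic reticulum, had 3239, 4396 and 4556 with GSK126, against 594, 604 and 587 with DMSO (2.75 ± 0.21, adjusted p = 0.000245). The 3 genes were separated between groups in every library, as was every gene that rose. HLA-B had 1341, 806 and 1119 with GSK126, against 163, 116 and 99.3 with DMSO, and HLA-C had 1331, 665 and 1039.5 with GSK126 against 135, 125 and 128 with DMSO. Since HLA genes are near-identical in part, reads may be split between them and their single values are less certain. B2M, the light chain that all class I molecules share, had 10208, 15112 and 18105 with GSK126, against 8953, 8729 and 9666 with DMSO and did not pass (log2 change 0.63, adjusted p = 0.215), except without GSK126 library 1 (adjusted p = 0.0129). None of the 14 tested subunits of the constitutive proteasome passed with limma, edgeR or DESeq2, 0 were under an unadjusted p of 0.05, and their median log2 change was -0.19. Class II genes were mostly too low to test, with 4 of 14 tested. HLA-DQB1 had 232, 203 and 271 with GSK126 against 11, 18.8 and 23.5 with DMSO, and CTSS, a protease that trims the class II chaperone, had 49.3, 157 and 103 with GSK126 against 1.23, 0.988 and 6.4 with DMSO. CIITA, the coactivator of class II genes, was untested at 0, 2.3 and 3.54 with GSK126 and 0 in each DMSO library. NLRC5, its class I counterpart, had 51.5, 39.1 and 72.5 with GSK126 against 4.9, 11.9 and 24.5 with DMSO (2.11 ± 0.59, adjusted p = 0.0741), with an adjusted p of 0.0461 without DMSO library 3 and of 0.055 to 0.257 without each of the others.

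Genes stimulated by interferon rose with them. Of 46 interferon-stimulated effectors found in the table, 30 were tested and 17 rose (median log2 change 2.00). Of the 21 with at least 10 in every DMSO library, 9 rose. DTX3L, a ubiquitin ligase, had 263, 314 and 302 with GSK126, against 14.7, 15.8 and 7.47 with DMSO (4.49 ± 0.37, adjusted p = 0.000374). Its partner PARP9 had 95.3, 93.6 and 91 with GSK126, against 1.23, 1.98 and 2.13 with DMSO. PARP14, an ADP-ribosyltransferase, had 162, 190.2 and 126 with GSK126 against 0, 3.95 and 1.07 with DMSO. The 3 genes are neighbours, and each was near 0 or low in DMSO and far higher in every GSK126 library. PARP12, of the same enzyme family, had 521, 449 and 518 with GSK126 against 95.6, 97.8 and 112 with DMSO. IFITM1, which blocks virus entry, had 189, 133 and 242 with GSK126 against 20.8, 20.8 and 20.3 with DMSO. Of the 5 apolipoprotein L genes found in the table, APOL1, APOL3 and APOL6 rose, and APOL2, at 2283, 1135 and 1335 with GSK126 against 849, 588 and 683 with DMSO, was just short of the threshold (adjusted p = 0.0557), and passed without GSK126 library 1 or 2 (adjusted p = 0.0365 and 0.0354). APOL3 had 272, 204 and 308 with GSK126 against 20.8, 37.5 and 36.3 with DMSO. APOL6 had 829, 804 and 750.5 with GSK126 against 79.7, 62.2 and 64 with DMSO. Without DMSO library 2 the count of effectors that rose was 11, and without GSK126 library 3 it was 10.

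Of 25 tested interferon regulatory factors, STATs and receptors, IRF1, STAT5A and JAK1 rose, with a median log2 change of 0.27 over the list, and 5 rose without GSK126 library 1. IRF1, a transcription factor that drives class I genes, had 2221, 1559.9 and 1940.2 with GSK126, against 243, 225 and 265 with DMSO (2.95 ± 0.22, adjusted p = 0.000245). STAT5A, the prolactin-responsive factor of the mammary gland, had 1094, 588 and 729 with GSK126 against 73.5, 40.5 and 39.5 with DMSO (3.96 ± 0.34, adjusted p = 0.000535). JAK1, a kinase of interferon receptors, had 2196, 3470.4 and 2645 with GSK126 against 1332, 1487 and 1342 with DMSO (0.97 ± 0.22, adjusted p = 0.0298). Its call was lost without DMSO library 1, 2 or 3 and without GSK126 library 2 or 3 (adjusted p 0.0664 to 0.151). STAT3, which transduces signals of interleukin 6, had 15188, 12132 and 11565 with GSK126 against 9002, 8614 and 8587 with DMSO, and did not pass (adjusted p = 0.169). Of 12 interferon genes looked for, the 5 found in the table were all too low to test, with 4.9 as the highest value in the 6 libraries. Of 11 tested sensors of nucleic acids, 2 rose, and 1 without DMSO library 1 or GSK126 library 3. DHX58, a helicase of the RIG-I family, had 129, 129.6 and 141 with GSK126 against 22.1, 24.7 and 38.4 with DMSO. TMEM173, which encodes STING, had 342, 354 and 533 with GSK126 against 120.1, 176 and 157 with DMSO, and its adjusted p was 0.0607, 0.0598 and 0.0836 without DMSO library 1, DMSO library 3 and GSK126 library 3.

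**Figure D2:**
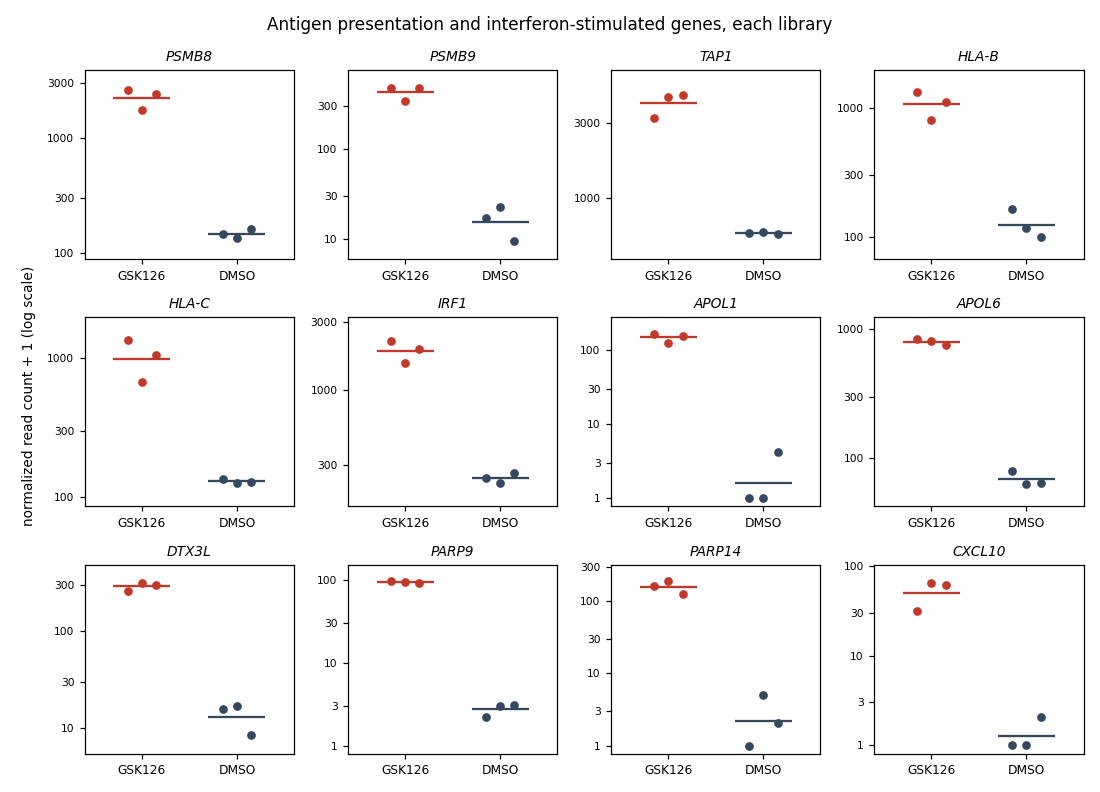
Normalized read count plus 1 (log scale, each panel with its own range) of 12 interferon-stimulated and antigen-presenting genes in the 3 GSK126 libraries (left) and the 3 DMSO libraries (right). Points are libraries and lines are group means on the log scale, and in all 12 panels the lowest GSK126 library stands above the highest DMSO library. Every gene that rose was separated in this way.

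The regions upstream of these genes hold letters that factors of the interferon response are known to bind. Windows of 250 bases before to 50 after the start of transcription came from RefSeq (GRCh38.p14), and 38 of the 46 effectors had one. The interferon-stimulated response element, searched as GAAANNGAA on both strands, was present in 27 of those 38 windows (71.1%), in 9 of 18 windows of class I genes (50%) and in 8.29% of all 27305 windows. It was in 11 of 15 windows of effectors that rose (73.3%) and in 16 of 23 of those that did not (69.6%). The gamma-activated sequence, searched as TTCNNNGAA, was in 9 of the 38 effector windows and in 7.88% of all windows, and the pair of motifs can overlap. Only 78.2% of tested genes had a window, so no share over all called genes is given. Windows of 5 genes that rose are shown, 5′ to 3′ on the strand of the gene, with every match in capitals. TAP1 lies at chr6:32853655-32853954 (minus strand), CXCL10 at chr4:76023448-76023747 (minus), DTX3L at chr3:122564088-122564387 (plus), PARP14 at chr3:122680589-122680888 (plus) and IRF1 at chr5:132490724-132491023 (minus).
TAP1: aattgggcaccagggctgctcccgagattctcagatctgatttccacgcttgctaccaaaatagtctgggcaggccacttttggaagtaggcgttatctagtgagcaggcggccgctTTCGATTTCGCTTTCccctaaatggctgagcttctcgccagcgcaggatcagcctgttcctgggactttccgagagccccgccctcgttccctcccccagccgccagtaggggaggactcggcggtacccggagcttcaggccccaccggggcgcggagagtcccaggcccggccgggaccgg
CXCL10: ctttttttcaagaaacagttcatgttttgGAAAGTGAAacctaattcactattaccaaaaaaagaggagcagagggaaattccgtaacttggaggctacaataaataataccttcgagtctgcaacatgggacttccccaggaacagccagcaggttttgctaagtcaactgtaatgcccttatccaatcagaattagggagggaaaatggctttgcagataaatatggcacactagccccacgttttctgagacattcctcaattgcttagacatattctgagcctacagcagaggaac
DTX3L: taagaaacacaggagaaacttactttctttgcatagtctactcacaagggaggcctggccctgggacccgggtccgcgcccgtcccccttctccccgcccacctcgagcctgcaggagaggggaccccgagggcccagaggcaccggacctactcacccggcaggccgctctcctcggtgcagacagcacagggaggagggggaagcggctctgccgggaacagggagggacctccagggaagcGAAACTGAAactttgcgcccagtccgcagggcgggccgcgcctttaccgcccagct
PARP14: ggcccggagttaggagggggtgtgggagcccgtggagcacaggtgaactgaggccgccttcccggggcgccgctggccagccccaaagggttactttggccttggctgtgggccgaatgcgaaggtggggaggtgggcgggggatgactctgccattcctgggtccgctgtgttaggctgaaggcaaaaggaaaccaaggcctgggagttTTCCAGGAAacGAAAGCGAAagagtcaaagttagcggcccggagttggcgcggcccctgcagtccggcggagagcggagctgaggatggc
IRF1: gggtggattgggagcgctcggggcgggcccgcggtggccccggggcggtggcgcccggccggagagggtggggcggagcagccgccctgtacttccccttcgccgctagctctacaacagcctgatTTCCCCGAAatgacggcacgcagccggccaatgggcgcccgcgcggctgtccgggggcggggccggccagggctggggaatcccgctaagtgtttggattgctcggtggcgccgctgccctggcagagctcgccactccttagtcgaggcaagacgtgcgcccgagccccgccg
The TAP1 window held 2 overlapping matches of the response element, those of CXCL10, DTX3L and PARP14 1 each, and that of IRF1 none but 1 match of the gamma-activated sequence, which PARP14 held as well. The windows of TAP1, DTX3L, PARP14 and IRF1 had 19 to 36 CG pairs and that of CXCL10 had 3. A match describes the letters and not binding in these cells.

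Several chemokines and targets of NF-kB were higher too. Of 33 chemokines and cytokines found in the table, 15 were tested and 10 rose, with a median log2 change of 2.32, and 6 rose without GSK126 library 3. Of the 8 with at least 10 in every DMSO library 5 rose. CCL2, which draws monocytes, had 278, 451 and 560.4 with GSK126, against 41.7, 39.5 and 48 with DMSO (3.24 ± 0.32, adjusted p = 0.000768). CX3CL1, a membrane-bound chemokine, was the most abundant of the 10 at 3437, 3114 and 4533 with GSK126, against 1136, 1218 and 1017 with DMSO. CXCL10, which draws T cells and is a standard interferon target, had 30.7, 63.7 and 61 with GSK126 and 0, 0 and 1.07 with DMSO, a total of 180 reads against 1 (ratio 149, 95% counting interval 26.3 to 5903). CSF1, the macrophage growth factor, and CXCL16 rose by 2.89 ± 0.37 and 2.57 ± 0.34 on the log2 scale. Of the 16 NF-kB factors and feedback targets 6 rose, but 3 did so without DMSO library 1, 2 or 3 or GSK126 library 2, 2 without GSK126 library 3 and 10 without GSK126 library 1. ICAM1, an adhesion molecule for leukocytes, passed in each of these fits and had 360.3, 416 and 478 with GSK126 against 62.5, 68.2 and 51.2 with DMSO. TNFAIP3, the feedback inhibitor A20, had 162, 439 and 289 with GSK126 against 27, 58.3 and 43.8 with DMSO, with an adjusted p of 0.00559, and 0.0556 without GSK126 library 3. RELB, a subunit of NF-kB, had 1009.8, 671 and 1121 with GSK126 against 389, 254 and 225 with DMSO, and its adjusted p was 0.066 without GSK126 library 3. The call of BIRC3, an inhibitor of cell death, was weaker still: it had 272, 123 and 98.1 with GSK126 against 40.4, 22.7 and 58.7 with DMSO, and passed in 1 of the 6 fits that left out 1 library, the one without GSK126 library 1 (adjusted p 0.0536 to 0.151 in the others). UBD, a ubiquitin-like modifier induced by interferon and TNF, had 271, 173 and 175 with GSK126 against 3.68, 0.988 and 8.54 with DMSO. On the cell surface LGALS9, a galectin that binds T cell receptors, rose by 3.65 ± 0.40 and CD276, an immune checkpoint ligand, by 1.33 ± 0.21, the 2 members that passed among 14 tested ligands.

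Developmental transcription factors, the classic PRC2 targets, mostly stayed below the test. Of the 96 found in the table, 35 were tested and 12 rose, and 61 were too low, with 16.9 as the highest value among them in any of the 6 libraries. Of the 28 with at least 10 in every DMSO library 8 rose. SOX9, a factor of progenitor cells and cartilage, had 639.6, 891 and 627 with GSK126, against 174, 128 and 162 with DMSO (2.20 ± 0.25, adjusted p = 0.00111). GATA2, a haematopoietic and endothelial factor, had 901, 995 and 1169 with GSK126 against 322, 368 and 340.5 with DMSO (1.56 ± 0.21, adjusted p = 0.00234). FOXD1 had 94.2, 102 and 164 with GSK126 against 20.8, 18.8 and 11.7 with DMSO, and RUNX3 had 159.9, 82.1 and 129.9 with GSK126 against 20.8, 17.8 and 10.7 with DMSO. These 4 factors had reads in every DMSO library. LMO2, a partner of haematopoietic factors, was at 77.8, 103 and 69.8 with GSK126 against 1.23, 0 and 3.2 with DMSO. SOX4, the most abundant member that did not pass, had 26368, 6208 and 8432 with GSK126 against 6964, 3049 and 4442 with DMSO, and the groups overlapped. Of the 34 HOX genes found in the table, 8 were tested, all of the HOXC cluster, and 1 rose, HOXC11, at 398, 304 and 414 with GSK126 against 74.8, 86 and 61.9 with DMSO. HOXC13, in the same cluster, had 2195, 1596 and 1281 with GSK126 against 867, 906 and 1083 with DMSO (adjusted p = 0.1). Without GSK126 library 3 the count of developmental factors that rose was 5.

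**Figure D3:**
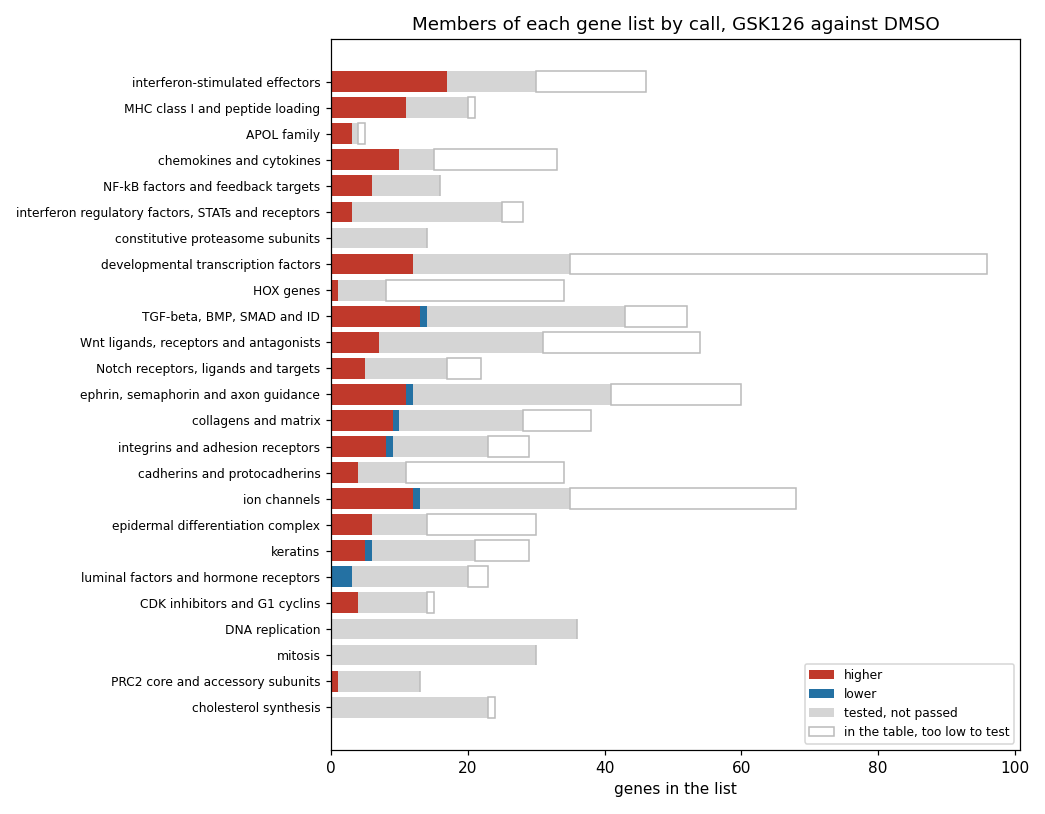
Members of 25 gene lists (rows) by their call in GSK126 against DMSO, as a number of genes (x axis). Class I genes, interferon-stimulated effectors and chemokines have many members that rose (11, 17 and 10), while constitutive proteasome, DNA replication, mitosis and cholesterol synthesis have none that passed.

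Some secreted signals of development and their targets rose. Of 43 tested genes of TGF-beta and BMP signalling 13 rose and 1 fell, with 8 higher without GSK126 library 3. Of the 36 with at least 10 in every DMSO library 10 rose and 1 fell. BMP3, a ligand known as an antagonist of other BMPs, had 682, 1486 and 946 with GSK126, against 29.4, 19.8 and 26.7 with DMSO (5.25 ± 0.34, adjusted p = 0.000229). BMP2, a ligand that induces bone, had 85.4, 75.2 and 84 with GSK126 against 1.23, 0.988 and 1.07 with DMSO, a total of 271 reads against 3 (ratio 74.6, 95% counting interval 25.3 to 364). TGFB2 had 405, 637 and 498 with GSK126 against 78.4, 109 and 77.9 with DMSO, and TGFB1 had 116, 52.2 and 82.2 with GSK126 against 9.81, 7.9 and 8.54 with DMSO. TGFB3 went the other way, at 1322, 1935 and 2508 with GSK126 against 4697, 5036 and 4430.3 with DMSO (-1.34 ± 0.25, adjusted p = 0.0123), so that among the TGF-beta ligands the one most read in DMSO fell while the other two rose. Its adjusted p was 0.0577 without DMSO library 2 and 0.0501 without DMSO library 3. In the Notch pathway 5 of 17 tested genes rose, and 3 without GSK126 library 3. HES2, a repressor of the family of Notch targets, had 824, 899.6 and 1004 with GSK126 against 218, 156 and 122 with DMSO, and the target HEY1 had 481, 429 and 369 with GSK126 against 77.2, 99.8 and 83.2 with DMSO. The ligand DLL4 had 125, 216 and 263 with GSK126 against 44.1, 7.9 and 23.5 with DMSO (adjusted p = 0.0107, and 0.0909 without GSK126 library 3). The ligand JAG1 had 217, 285 and 125 with GSK126 against 28.2, 66.2 and 59.8 with DMSO, with an adjusted p of 0.0575, 0.0529 and 0.0753 without DMSO library 1, DMSO library 3 and GSK126 library 2. Wnt genes were less stable, with 7 of 31 tested higher, but 1 without GSK126 library 3, 4 without DMSO library 3 and 12 without GSK126 library 1. Of the 23 with at least 10 in every DMSO library 3 rose. WNT11, a ligand of the non-canonical branch, had 62.4, 19.2 and 22.1 with GSK126 and no read with DMSO, at least 31.9-fold higher. WNT4, a ligand that acts in mammary branching in mice, had 865, 508 and 721 with GSK126 against 266, 221 and 183 with DMSO, and its adjusted p was 0.0576 without GSK126 library 3.

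Some guidance receptors and ion channels rose, and most of those tested did not pass. Of 41 tested ephrin, semaphorin and axon guidance genes 11 rose and 1 fell, the kinase-dead receptor EPHB6. Of the 36 with at least 10 in every DMSO library 8 rose and 1 fell. UNC5B, a netrin receptor, had 641, 722 and 781 with GSK126, against 139, 90.9 and 55.5 with DMSO (2.99 ± 0.33, adjusted p = 0.00102). PLXNA2, a semaphorin receptor, had 496, 597 and 439 with GSK126 against 45.4, 98.8 and 76.8 with DMSO, and its partner NRP1 had 1989, 2591 and 2209.8 with GSK126 against 721, 835 and 788 with DMSO. EPHB6 had 1446, 794 and 974 with GSK126 against 2814, 2265 and 2161 with DMSO (adjusted p = 0.0222), and its adjusted p was 0.0551 to 0.111 in 5 of the 6 fits that left out 1 library, with the exception of GSK126 library 1. Of 35 tested ion channel genes 12 rose and 1 fell, with 6 higher without GSK126 library 3, although 4 of the 25 channels with at least 10 in every DMSO library rose. KCNK1, a background potassium channel, had 245, 351 and 185 with GSK126 against 31.9, 23.7 and 31 with DMSO. SCNN1G, a subunit of the epithelial sodium channel, had 80.0, 137 and 74.2 with GSK126 against 9.81, 4.94 and 7.47 with DMSO. KCNMA1, the large-conductance calcium-activated potassium channel, fell to 1768, 1150.4 and 1148 with GSK126, against 4116, 3362 and 3298 with DMSO (-1.43 ± 0.23, adjusted p = 0.00643).

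Among cell adhesion and matrix genes, those that passed were mostly higher. Of 28 tested collagen and matrix genes 9 rose and 1 fell, with 4 higher without GSK126 library 3. Of the 22 with at least 10 in every DMSO library 6 rose and 1 fell. LAMC1, a laminin chain of basement membranes, had 433, 602 and 459.6 with GSK126, against 7.35, 38.5 and 13.9 with DMSO (4.86 ± 0.52, adjusted p = 0.000888). COL6A1, a chain of type VI collagen, had 916, 645 and 829 with GSK126 against 129.9, 171 and 104 with DMSO. LAMB3, a chain of the laminin that anchors epithelia, had 1394, 1011 and 667 with GSK126 against 237, 212 and 207 with DMSO. COL9A3, a chain of a cartilage collagen, had 133, 143 and 134 with GSK126 against 15.9, 21.7 and 8.54 with DMSO. In these 4 genes the lowest GSK126 library was well above the highest DMSO library. The gene that fell was COL1A2, a chain of type I collagen, with no read in any GSK126 library and 38, 42.5 and 33.1 in the DMSO libraries. COL1A1, the other chain, was at 130 to 240 with GSK126 and 199 to 337 with DMSO and did not pass. Of 23 tested adhesion receptors 8 rose and 1 fell, with 5 higher without GSK126 library 2 or 3. The 1 that fell was not called without DMSO library 1, 2 or 3 or GSK126 library 3. CD44, the hyaluronan receptor, had 629, 888 and 733 with GSK126, against 46.6, 52.4 and 73.6 with DMSO (3.69 ± 0.28, adjusted p = 0.000245). ITGB6, an integrin chain that activates latent TGF-beta, had 2214, 2762 and 1941 with GSK126 against 577, 614 and 565 with DMSO. Carcinoembryonic antigen genes split, since CEACAM5 and CEACAM6 rose by 2.14 ± 0.30 and 1.44 ± 0.22 while CEACAM7 fell by 3.46 on the log2 scale at 0, 4.6 and 0.884 with GSK126 against 24.5, 23.7 and 21.3 with DMSO. They are close paralogs, and the call of CEACAM7 was lost without DMSO library 1, 2 or 3 or GSK126 library 3 (adjusted p 0.0873 to 0.121). PLAU, the urokinase that activates plasmin, had 876, 1318 and 1866 with GSK126 against 51.5, 67.2 and 40.6 with DMSO (4.61 ± 0.33, adjusted p = 0.000229). NT5E, the ectoenzyme CD73 that makes adenosine, had 996, 1732 and 1413 with GSK126 against 82.1, 156 and 194 with DMSO. Both genes were far apart between the groups. TIMP2, an inhibitor of metalloproteinases, had 11155, 8009 and 8520.2 with GSK126 against 4249.7, 4004 and 3837 with DMSO, and its adjusted p was 0.0584 without DMSO library 3. FN1, fibronectin, had 1934, 6355 and 3669 with GSK126 against 777, 1232 and 987 with DMSO, with an adjusted p of 0.0654, 0.0717 and 0.118 without DMSO library 1, DMSO library 3 and GSK126 library 3. TGFBI, a matrix protein induced by TGF-beta, had 827, 1052 and 1032 with GSK126 against 465, 439 and 449 with DMSO, with an adjusted p of 0.0678, 0.07 and 0.0681 without DMSO library 2, DMSO library 3 and GSK126 library 3. Without DMSO library 3 or GSK126 library 3, 2 of 13 tested mesenchymal factors rose, against 4 with all libraries.

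CDH5, the cadherin of blood vessel endothelium, was among the cadherins that rose, with 867, 1529 and 1400.1 with GSK126 against 131, 182 and 111 with DMSO (3.14 ± 0.29, adjusted p = 0.000671). PCDH7, a protocadherin, had 369, 548 and 328 with GSK126 against 55.2, 93.9 and 63 with DMSO. Of the other endothelial markers, PECAM1, KDR, TEK, CLDN5 and EMCN did not exceed 3.29 in any of the 6 libraries, CLDN5 was at 0 in all of them, and VWF was at 26.5 to 63.5 with GSK126 and 83.0 to 107 with DMSO. The 7 markers summed to 935 to 1561 with GSK126 and 206 to 270 with DMSO, and CDH5 and VWF made up most of both sums. Of 11 leukocyte markers CD68 and ITGAM rose, and the sum was 384 to 537 with GSK126 and 204 to 245 with DMSO, while PTPRC, CD3D, CD3E, CD163, LYZ and NKG7 were at 0 to 2.65 in every library. The 10 fibroblast markers summed to 340 to 478 with GSK126 and 326 to 474 with DMSO, with COL1A2 lower, and the 4 adipocyte markers to 23.0 to 31.8 and 35.5 to 64.2. The 14 epithelial and HER2 luminal markers summed to 635597 to 1115050 with GSK126 and 794595 to 1013650 with DMSO, with TFAP2A lower. EPCAM, an epithelial adhesion molecule, had 6764, 5678 and 4571 with GSK126 against 7788, 7567 and 8887 with DMSO and did not pass (adjusted p = 0.238), except without GSK126 library 1 (adjusted p = 0.0484). In bulk RNA fewer cells of a kind and less RNA in each cell cannot be told apart, and the part of these markers in the results was not tested.

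Some genes of squamous and secretory differentiation rose, while most of those tested did not pass. Of 14 tested genes of the epidermal differentiation complex, a cluster active in skin, 6 rose, and 3 of the 10 with at least 10 in every DMSO library. IVL, involucrin of the cornified envelope, had 1861, 1823 and 2048 with GSK126, against 396, 409 and 279.6 with DMSO (2.42 ± 0.22, adjusted p = 0.000638). S100A9, a subunit of calprotectin, had 46916, 22972 and 36957 with GSK126 against 11186, 6004 and 8166 with DMSO, and its partner S100A8 had 7392, 3440.5 and 3847 with GSK126 against 1073, 640.3 and 813 with DMSO. Of 21 tested keratins 5 rose and 1 fell, and 3 rose without GSK126 library 3. KRT6B, a keratin of activated epidermis, had 287, 183 and 241 with GSK126 against 3.68, 9.88 and 3.2 with DMSO, whereas KRT79 was at 0, 0 and 3.54 with GSK126 against 50.3, 31.6 and 49.1 with DMSO. Keratins are a multigene family, so their reads may be shared. PIGR, the receptor that carries antibodies into secretions, had 179.6, 168 and 127 with GSK126 against 7.35, 3.95 and 10.7 with DMSO, and LCN2, lipocalin 2, had 377, 183 and 239.5 with GSK126 against 6.13, 14.8 and 25.6 with DMSO. Of 14 tested genes of milk and secretion 6 rose, and 3 without DMSO library 2, DMSO library 3 or GSK126 library 3. Of 20 tested luminal factors and hormone receptors 3 fell and none rose with limma or edgeR, while DESeq2 called 3 higher and 3 were higher at an unadjusted p under 0.05. XBP1, a factor of secretory cells, was at 6862, 10545 and 8859 with GSK126 against 17363, 20056 and 20122 with DMSO (-1.15 ± 0.22, adjusted p = 0.0142). TFAP2A, an AP-2 factor, was at 1764, 1434 and 1518 with GSK126 against 2816, 2684 and 2921 with DMSO. Leaving out single libraries took both calls away (XBP1 without DMSO library 2 or 3 or GSK126 library 3, adjusted p 0.0738 to 0.0856, and TFAP2A in each fit but the one without GSK126 library 1, adjusted p 0.0656 to 0.174), and without GSK126 library 1 the list had 3 higher and 8 lower genes. ELF3, an epithelial factor, had 19969, 20907 and 30808 with GSK126 against 14057, 12824 and 11874 with DMSO and missed the threshold (adjusted p = 0.0638), except without GSK126 library 1 (adjusted p = 0.0134).

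Among cell cycle genes, 4 of 14 tested CDK inhibitors and G1 regulators were higher. CDKN2B, which encodes the inhibitor p15 and is a known PRC2 target, had 674, 1215 and 903 with GSK126, against 156, 215 and 266 with DMSO (2.12 ± 0.30, adjusted p = 0.00294). CDKN2A, in the same locus, had 1383, 1527 and 2265 with GSK126 against 1558, 1241 and 1076 with DMSO and overlapped (adjusted p = 0.51). CDKN1C, an imprinted inhibitor, had 135, 59.1 and 118 with GSK126 against 14.7, 10.9 and 7.47 with DMSO, and CDK6, a G1 kinase, had 1267, 1571 and 1035 with GSK126 against 353, 385 and 476 with DMSO. CDKN1A, the inhibitor p21, had 624, 615 and 1006 with GSK126 against 319, 295 and 255 with DMSO (adjusted p = 0.0142), and its adjusted p was 0.0565, 0.0792 and 0.0667 without DMSO library 2, DMSO library 3 and GSK126 library 3. None of 36 tested genes of DNA replication and none of 30 of mitosis passed with limma, edgeR or DESeq2, with medians of -0.38 and -0.05. At an unadjusted p under 0.05, 10 replication genes were lower and 0 mitosis genes were in either direction, and without GSK126 library 1 the adjusted test called 3 and 1 lower. The fit of all 12 libraries called 6 replication genes and 0 mitosis genes lower, among 553 lower genes in all. On simulated data the main procedure found 0 of 50 genes changed by 1.5-fold, so changes of that size can go uncalled. MKI67, a marker of cycling cells, had 12236, 8349 and 7587 with GSK126 against 8379, 7494 and 8266 with DMSO (adjusted p = 0.77). In the BCL2 family 5 of 15 tested genes rose, and 3 without GSK126 library 3. PMAIP1, which promotes cell death, had 159, 169 and 131 with GSK126 against 12.3, 22.7 and 12.8 with DMSO. BMF, of the same kind, had 1383, 1996 and 2510.3 with GSK126 against 319.9, 515 and 349 with DMSO. BCL2, which protects cells, rose as well, at 25.2, 44.5 and 36.2 with GSK126 against 3.68, 3.95 and 0 with DMSO, with an adjusted p of 0.0968 and 0.119 without GSK126 libraries 2 and 3. The stress-responsive factor ATF3 had 912, 1591 and 1666 with GSK126 against 357, 333 and 348 with DMSO. CHAC1, which breaks down glutathione, had 195, 216 and 308 with GSK126 against 76, 64.2 and 54.4 with DMSO. ADM, the peptide hormone adrenomedullin, had 373, 384 and 394 with GSK126 against 78.4, 45.5 and 39.5 with DMSO. These 3 genes did not overlap between the groups, which held for every called gene. PTGES, a prostaglandin E synthase, had 5255, 4141 and 6235 with GSK126 against 2263, 1870.5 and 1773 with DMSO. GPX3, a secreted glutathione peroxidase, had 1468, 983 and 1215 with GSK126 against 651, 511 and 473 with DMSO, and its adjusted p was 0.0855, 0.108 and 0.0872 without DMSO library 2, DMSO library 3 and GSK126 library 3.

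The HER2 receptor gene and its relatives did not pass with all 6 libraries. ERBB2 had 149368, 123876 and 88082 with GSK126, against 143494, 166912 and 152454 with DMSO (-0.39 ± 0.27, adjusted p = 0.57). ERBB3 had 8937, 5349 and 5715 with GSK126 against 6145, 4967 and 5683 with DMSO (adjusted p = 0.746), and EGFR had 761, 2230.2 and 1332 with GSK126 against 425, 858 and 653 with DMSO (1.08 ± 0.40, adjusted p = 0.185), and EGFR passed without GSK126 library 1 (adjusted p = 0.00943). The groups overlapped for each of the 3 genes. Of 24 tested growth factor receptors and EGF-family ligands 5 rose and 1 fell, with 9 higher without GSK126 library 1 and 3, 3, 2 and 1 without DMSO libraries 2 and 3 and GSK126 libraries 2 and 3. Of the 17 with at least 10 in every DMSO library 3 rose and 1 fell. INSR, the insulin receptor, had 1099, 768 and 717 with GSK126 against 259.9, 291 and 306 with DMSO (1.56 ± 0.24, adjusted p = 0.00461). FGFR4, a fibroblast growth factor receptor, was at 1244, 965 and 1359 with GSK126 against 2618, 2495 and 2111 with DMSO (-1.03 ± 0.21, adjusted p = 0.0197), with an adjusted p of 0.0541 to 0.102 without DMSO library 1, 2 or 3 or GSK126 library 3. DUSP4, a phosphatase that ERK induces and that acts back on it, was at 4097, 2864 and 2612 with GSK126 against 6036, 5491 and 6014 with DMSO (adjusted p = 0.0438, and 0.102 to 0.199 in each fit that left out 1 library but that without GSK126 library 1).

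The 62 genes that fell included enzymes of lipid and steroid handling and a few very abundant RNAs. THRSP, a nuclear regulator of fatty acid synthesis, was at 20.8, 54.5 and 46 with GSK126, against 297, 279.6 and 235 with DMSO (-2.81 ± 0.38, adjusted p = 0.00267). ECI2, an isomerase of fatty acid oxidation, was at 669, 444 and 500.3 with GSK126 against 2089.9, 1903 and 2243 with DMSO (-1.97 ± 0.22, adjusted p = 0.00108). SPTSSB, a small subunit of the enzyme that starts sphingolipid synthesis, was at 148, 165 and 92.8 with GSK126 against 559, 653 and 744 with DMSO. HSD17B2, which inactivates oestradiol and testosterone, was at 274, 235 and 236 with GSK126 against 959, 792 and 791 with DMSO. ABCC11, an exporter active in apocrine glands, was at 40.5, 107 and 80.4 with GSK126 against 357, 393 and 355 with DMSO. In these 5 genes, and in every gene that fell, no GSK126 library reached the DMSO range. Of 21 tested genes of fatty acid synthesis 1 fell and 2 rose (1 without GSK126 library 3), and of 24 of fatty acid oxidation and ketogenesis 1 fell and 3 rose (1 without GSK126 library 2 or 3). Of 23 of cholesterol synthesis none passed with limma, edgeR or DESeq2, 1 was lower at an unadjusted p under 0.05, and 2 were lower without GSK126 library 1. TARP, read from the T cell receptor gamma locus and known from prostate and breast tumours, was at 163, 265 and 295 with GSK126 against 1325, 1326 and 1292 with DMSO (-2.49 ± 0.26, adjusted p = 0.000878). It overlaps other genes of that locus, so the assignment of its reads is less certain.

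H19, an imprinted non-coding RNA, was the most abundant gene that fell, at 79711, 72312 and 108002 with GSK126, against 386648, 344828 and 234356 with DMSO (-1.88 ± 0.29, adjusted p = 0.00525). Of 13 tested imprinted genes 2 fell and 3 rose. PEG10, a gene derived from a retroelement, was at 1069, 1684 and 1029.8 with GSK126 against 3312, 3983 and 4062 with DMSO, and GRB10, an adaptor that damps insulin signalling, was at 665, 674 and 583 with GSK126 against 199.8, 208 and 232 with DMSO. PNMT, which makes adrenaline and lies beside ERBB2, was at 51.5, 22.2 and 16.8 with GSK126 against 249, 144 and 127 with DMSO (adjusted p = 0.0105, and 0.0686 without GSK126 library 3). The other genes among the 15 largest decreases were ANXA9, LRTM2, FAM131A, C1orf64, MZB1, SULT2B1 and KRT3, with log2 changes of -2.08 to -1.65. Of these, ANXA9 and C1orf64 passed in all 6 fits that left out 1 library. LRTM2, FAM131A, MZB1, SULT2B1 and KRT3 passed in 2, 5, 1, 3 and 1 of them.

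**Figure D4:**
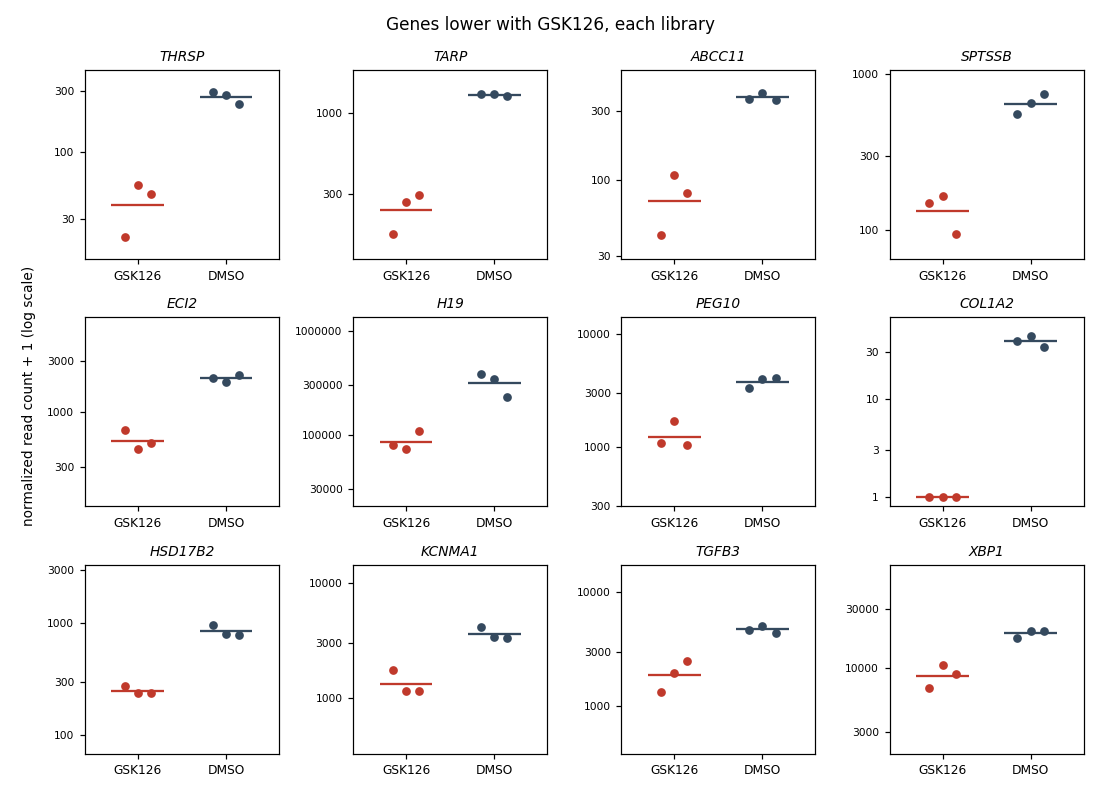
Normalized read count plus 1 (log scale, each panel with its own range) of 12 genes that fell, in the 3 GSK126 libraries (left) and the 3 DMSO libraries (right). Points are libraries and lines are group means on the log scale, and the highest GSK126 library is below the lowest DMSO library in each panel, with COL1A2 at 0 reads in all GSK126 libraries. Every gene that fell was separated in this way.

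Genes that rose often lay next to each other. With the tested genes put in RefSeq order, 720 of the 760 had a place, and 147 of them (20.4%) had another gene that rose directly beside them among tested genes, against 10.8% of the other tested genes placed. The comparison is a description, since adjacent genes can share reads and families. There were 67 runs of at least 2 such genes and 10 runs of at least 3. One run of 4 was TAP2, PSMB8, TAP1 and PSMB9 in the class II region of the MHC, another TCHHL1, TCHH, IVL and SPRR3 in the epidermal differentiation complex. Runs of 3 included PARP9, DTX3L and PARP14, GBP3, GBP1 and GBP2, and S100A9, S100A8 and S100A7.

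GSK126 was measured again in cells that received lapatinib for the last 24 h, in libraries that share none with the first 6. GSK126 + lapatinib against lapatinib gave 2544 higher genes (18.7% of 13610 tested) and 2433 lower genes (17.9%). Of the 760 genes that rose with GSK126 against DMSO, 723 were tested here, 705 rose and none fell, which is 92.8% of the first list and 27.7% of the second, with a median log2 change of 2.28. All 62 genes that fell against DMSO were also called lower here, with a median of -1.58, and they make up 2.55% of the second list. GSK126 + lapatinib library 1 stood apart, with reads in 21669 genes where the other 11 libraries had them in 15059 to 17338. Its gene reads were the fewest, at 17693103 against 24192532 to 30349466 in the other 11. The fit with the spike-in composition term rested on this library too, since it shared the class of GSK126 libraries 2 and 3. Without it the shared counts were 689 and 62. FADS2 and TXNIP, singled out after their values were seen, were the 2 genes of the 723 whose sign differed. FADS2, a fatty acid desaturase, had 88.7, 90.5 and 163 with GSK126 against 1.23, 8.89 and 9.61 with DMSO (adjusted p = 0.00519, and 0.0602 without GSK126 library 3), and 16.2, 5.66 and 12.5 with GSK126 + lapatinib against 15.7, 7.45 and 15 with lapatinib. TXNIP, a regulator of glucose uptake, had 2229, 3700.4 and 3343 with GSK126 against 1194, 1579 and 1460.0 with DMSO, and 7107, 7231 and 6345 with GSK126 + lapatinib against 7508, 7021 and 7358 with lapatinib. The call of TXNIP against DMSO was lost in each fit that left out 1 library but the one without GSK126 library 1 (adjusted p 0.0679 to 0.123). The difference between the 2 comparisons was not tested for either gene.

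Several of the genes described above were measured as follows in those libraries. IRF1 had 2312, 2326 and 2702 with GSK126 + lapatinib, against 220.3, 256 and 196 with lapatinib. Interferon-stimulated effectors rose in 34 of 39 tested genes and class I genes in 17 of 20, among them B2M at 18306, 19699.5 and 20043 with GSK126 + lapatinib against 8595, 8887 and 8276 with lapatinib, which had not passed against DMSO. Against DMSO 30 effectors had been tested. Genes low in every lapatinib library reached this test only through their GSK126 + lapatinib values, so these shares are a description. NLRC5 passed as well, at 67.2, 28.3 and 42.4 with GSK126 + lapatinib against 4.9, 5.32 and 3.75 with lapatinib (2.98 ± 0.42, adjusted p = 0.000232). APOL2 passed with 1311, 1573 and 1947 with GSK126 + lapatinib against 654, 595 and 534 with lapatinib. XBP1 and TFAP2A, whose calls against DMSO hung on single libraries, fell by 1.34 and 1.56 on the log2 scale, both with adjusted p at or below 2.33e-06. COL1A2, at 0 with GSK126 alone, had 23.6, 1.62 and 4.82 with GSK126 + lapatinib against 35.3, 20.2 and 58.2 with lapatinib. ERBB2 was lower there, at 151017, 185485 and 180505 with GSK126 + lapatinib against 296383, 290536 and 305779 with lapatinib (-0.79 ± 0.14, adjusted p = 0.00134). FGFR4 had 543, 566 and 522 with GSK126 + lapatinib against 2799.7, 2683 and 2457 with lapatinib. Of 13 PRC2 genes tested there 5 rose, beside 18.7% of all genes tested in that comparison. More genes passed there than against DMSO, in libraries whose median SD was 0.203 with GSK126 + lapatinib and 0.116 with lapatinib.

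**Figure D5:**
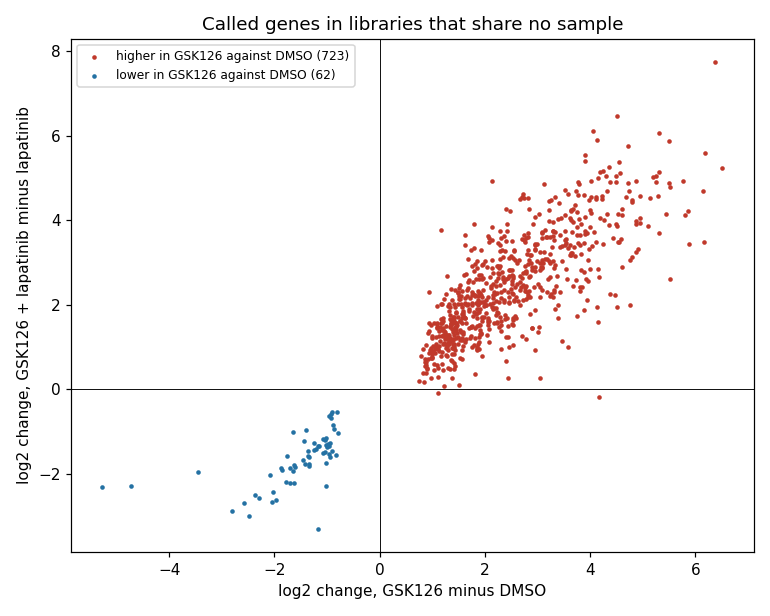
Log2 change with GSK126 against DMSO (x axis) and with GSK126 + lapatinib against lapatinib (y axis) for the genes called in the first comparison and tested in both, 723 higher and 62 lower. Of the 723 higher genes 721 lie above the horizontal zero line, and all 62 lower genes lie below it.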

How the data were processed

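Per the submitters' processing notes the reads were aligned with STAR to hg19 and processed with DESeq2. What the authors deposited is, for every gene in each library, a signal: its read count over the size factor of that library. Versions, counter, annotation and strand are not given in the sources used here. The labels' protocols name the Kapa mRNA HyperPrep kit, and the series' design text single-end reads from a NextSeq500. In the deposited columns 100% of values were within 0.01 of a whole number of reads, so reads were recovered for edgeR and DESeq2. The table held 22256 rows, 86 of them spike-ins, which stayed out of the tests. Of the genes, 27 had symbols turned into dates and are not named.

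Differences were tested with limma (version 3.58.1, R version 4.3.3) on log2 of the deposited signal plus 1, with a trended prior variance, in the 6 libraries of the groups compared. Genes needed at least 10 in at least 3 of these. Changes are log2 ± SE, intervals and floors cover counting error only, and edgeR 4.0.16 and DESeq2 1.42.0 were alternatives. On simulated data for GSK126 against DMSO (12733 genes), the procedure found 0, 7, 43 and 49 of 50 genes each changed by 1.5, 2, 4 and 8-fold, with 5 wrong calls of 104. The simulated libraries were independent, with the same spread in both groups, and the changed genes had a DMSO mean of at least 10. The measured GSK126 libraries spread more than the DMSO libraries, so these rates may not hold for the measured data. The members, gene lists and tests were chosen with earlier results of these data known, and no list was tested as a set. Named genes are the 15 largest changes each way with a mean of at least 50, up to 5 members of each list by adjusted p with its most abundant member that did not pass, and a fixed set of PRC2, interferon, HER2 and cell cycle genes, of which the text gives a part. Some genes that this rule names are not reported here. Genes in runs of neighbours and the marker genes are named beside these.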

Additional observations from a re-analysis of the deposited data

How the results depend on the processing

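Direction held for the 130 called genes listed for the text under all 20 alternatives wherever these gave a value, and no gene of the 822 was called the other way in any of them. No called gene overlapped between the groups, so most alternatives could not turn its direction. These were the changes of pseudocount, filter, prior variance and array weights and the replicate block. The plain fit of all 12 libraries and the fits without 1 library could not turn it either. Only rescaling, the composition term, edgeR and DESeq2 could have done so. The number of calls moved more. Spike-in scaling gave 233 higher and 3 lower genes (236 in all), and 69 of the 130 calls were lost under it. Array weights gave 2435 and 2015 (4450 in all), a fit of all 12 libraries 1380 and 553 (1933), and the same fit with spike-in composition as a term 393 and 53 (446). DESeq2 gave 1142 and 160 (1302). Total-count scaling gave 34 lower genes and moved the median log2 change of all tested genes to 0.048, against -0.057. Deviations from the group means correlated at 0.373, 0.407 and -0.169 between same-numbered libraries, and at -0.454 to 0.193 between the other pairs. These values do not settle whether the replicate numbers pair the samples, and the main fit did not pair them. The fit with the replicate block gave 1306 and 414 (1720 in all). Leaving out 1 library gave 334 to 1069 higher, 18 to 357 lower and 359 to 1426 in all. Of genes under 2 or under 10 in every DMSO library, 28 and 175 rose, against 89 under 5. The causes were not tested.

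Among the genes named, the sign turned only in some that had not passed. With spike-in composition as a term the log2 change was 0.12 for EZH2, 0.0043 for EED and -0.022 for SUZ12. With array weights it was -0.51 for SUZ12 (adjusted p = 0.0347, limma) and -0.059 for MKI67. Leaving out 1 library gave -0.24 to 0.29 for SUZ12, -0.014 to 0.33 for MKI67 and -0.013 to 0.36 for ERBB3.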
